A study of Drosophila melanogaster with 3 samples.

Results

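The origin recognition complex (ORC) is the protein assembly that marks replication origins: it binds chromatin before S phase and loads the MCM helicase, from which replication forks later start. In Drosophila, ORC is not known to follow a strict consensus sequence, and it is found mainly at open chromatin, often at the starts of active genes. Where several ORC sites lie close together, replication can begin at any of them, and such a group of alternative start sites is called an initiation zone. ORC2 is one subunit of the complex and is widely used as its marker in chromatin immunoprecipitation followed by sequencing (ChIP-seq).

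The peaks described here are narrow ORC2 peaks with their nearest neighbour at 1 to 5 kb, called spaced peaks below. They were mapped in asynchronous cultures of ML-DmBG3-c2, or BG3, a Drosophila melanogaster cell line from the central nervous system at the third instar larval stage; its genotype is y v f mal, and its sex is labelled unknown. The labels name 2 ORC2 ChIP libraries, made with an unpurified polyclonal rabbit serum raised against full-length ORC2, and 1 input DNA library of the same line. The input library was not analysed here, and the cells received no treatment, so the comparisons are between kinds of peaks and between the ChIP libraries. The ChIP libraries have extraction numbers of their own but no stated culture, so the spread between them may be technical.

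A spaced peak was a peak of the series list on 2L, 3L or 3R that was under 400 bp wide and whose midpoint lay at least 1000 bp and under 5000 bp from the nearest other midpoint on the arm. The parts of the arms beside the centromere were left out: midpoints above 21000000 on 2L, above 22500000 on 3L and below 2050000 on 3R. This gave 705 spaced peaks of 4477 peaks in the series list (15.7%, 95% exact interval 14.7 to 16.8), and of 2634 on the same stretches of the 3 arms (26.8%, 25.1 to 28.5). The other peaks on these stretches were 614 closely paired narrow peaks with a midpoint under 1 kb away, 977 isolated narrow peaks with none within 5 kb, and 338 wide peaks of 400 bp or more. The peaks were chosen by their measured position, width and distance to the nearest peak, and the score came from the same calls. These values are therefore given as a description, without a test.

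Every spaced peak had been called in both libraries, by replicate peaks that overlapped by at least 1 bp. The replicate lists held 8494 and 5905 peaks in all, 4817 and 3359 of them on the 3 stretches, and their read depth is unknown. All 705 intervals were the joint extent of the overlapping replicate peaks, and all 705 scores equalled the mean of the replicate scores within 0.0001. In 702 of them 1 peak of each replicate was joined, and in 3 of them 1 peak of replicate 1 met 2 of replicate 2. Scores are those the authors deposited from PeakSeq, a program that compares ChIP reads with a control, and the files do not name the quantity.

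The distances between spaced peaks and their neighbours leaned towards the short end of the range. The median distance was 2449 bp (quartiles 1585 and 3661 bp). Of the 705 peaks, 260 (36.9%) had their neighbour at 1 to 2 kb, 187 (26.5%) at 2 to 3 kb, 127 (18.0%) at 3 to 4 kb and 131 (18.6%) at 4 to 5 kb. The limits of the rule cut a continuous distribution. Narrow peaks numbered 457 per 500 bp of distance between 500 and 1000 bp, then 153 between 1000 and 1500 bp and 107 between 1500 and 2000 bp, and 65.5 per 500 bp between 4 and 5 kb, followed by 46 per 500 bp between 5 and 6 kb.

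**Figure D1:**
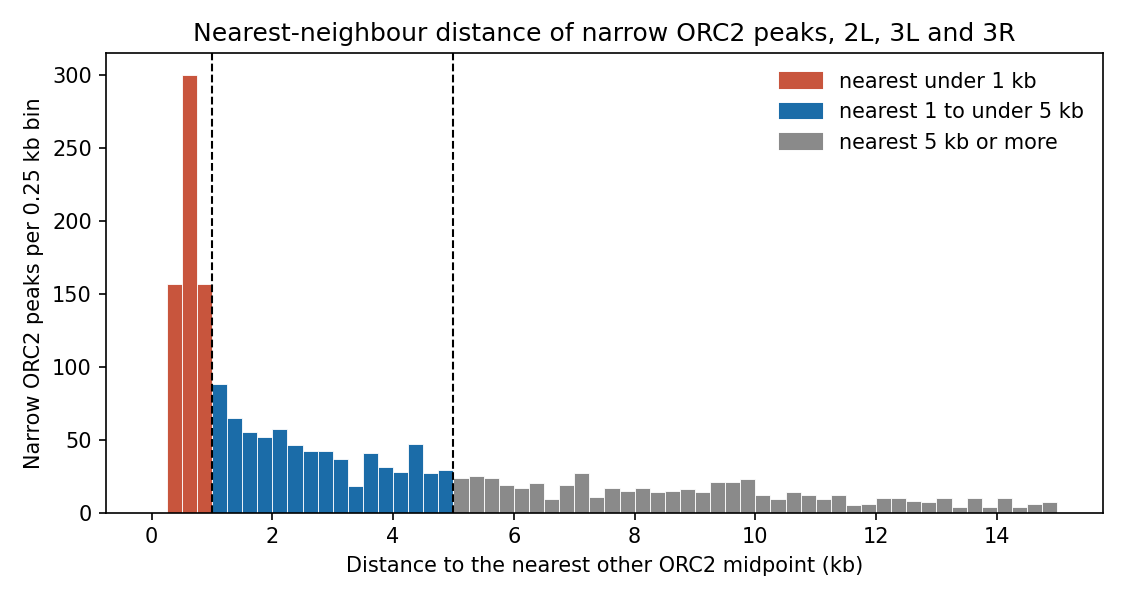
Number of narrow ORC2 peaks on the 3 stretches by distance from the midpoint to the nearest other midpoint (x axis, kb, bins of 0.25 kb, drawn to 15 kb; 440 of 2296 narrow peaks lay at 15 kb or beyond). The dashed lines are the limits at 1 and 5 kb, and the bars between them are the 705 spaced peaks, which number 260 at 1 to 2 kb, 187 at 2 to 3 kb, 127 at 3 to 4 kb and 131 at 4 to 5 kb.

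The values at the limits of the rule were as follows. The pair on 2L at 7281557 to 7281694 and 7282588 to 7282663 lay just inside the lower limit, at 1000 bp, with scores of 6.86 and 1.82. Just outside it were narrow peaks on 3L at 5745234 to 5745300 and at 20942544 to 20942873, each 996.5 bp from a neighbour, with scores of 5.20 and 3.02. At the upper limit, the peaks on 3L at 7798052 to 7798136 (4953.5 bp, score 3.10) and on 2L at 19935198 to 19935399 (4948.5 bp, score 1.81) were the last inside. The first pair outside it lay on 2L at 18703403 to 18703441 and 18708246 to 18708634, 5018 bp apart, with scores of 2.52 and 3.34. On the arms, the spaced peak nearest the limit was 2L at 20922859 to 20923008, 3L at 21876461 to 21876685 and 3R at 2179034 to 2179250, with scores of 4.03, 3.17 and 3.33. The nearest peak of that kind beyond it was 2L at 21214977 to 21215349, 3L at 23253140 to 23253294 and 3R at 1485125 to 1485193, with scores of 4.69, 2.80 and 2.11. The widest spaced peak measured 396 bp, and the narrowest peak left out for its width alone measured 402 bp. Of the 338 wide peaks, 130 had their nearest midpoint at 1 to 5 kb and would have been included without the width limit.

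The neighbour of a spaced peak was usually a spaced peak itself, which the rule favours. The nearest peak of a spaced peak has a neighbour under 5 kb away, so it cannot be isolated. A narrow peak whose own nearest peak is that spaced peak is spaced by definition. For 518 of the 705 (73.5%, 95% exact interval 70.1 to 76.7) the nearest peak belonged to the same kind, for 93 (13.2%) it was a closely paired peak, and for 94 (13.3%) a wide peak. In 511 cases (72.5%, 69.0 to 75.8) the choice was mutual, each peak being the nearest of the other. Where both peaks of a mutual pair are spaced, the pair counts 2 times. The intervals take peaks as independent, so they are too narrow here. A mutual share for the other kinds of peaks is not given here. Most stood at the edge of a group: 589 (83.5%) had a neighbour within 5 kb on 1 side only, and for these the peak on the far side lay at a median of 21037 bp. Of the 589, 355 were in groups of 2 peaks, where both are at the edge by definition, and 234 in larger groups. The remaining 116 of the 705 (16.5%, 13.8 to 19.4) had neighbours within 5 kb on both sides.

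The spaced peaks formed 372 multi-peak zones, a zone being a run of series peaks whose successive midpoints lay under 5000 bp apart, with at least 1 spaced peak among them. Together the zones held 1075 peaks: the 705 spaced peaks, 230 closely paired and 140 wide ones. They spanned 1.68 Mb, or 2.43% of the 69.3 Mb of the stretches, and held 40.8% of the series peaks there. The rule makes zones dense, so this share is not a separate result. Zone size fell off steeply. There were 193 zones of 2 peaks (51.9%), 99 of 3 (26.6%), 46 of 4 (12.4%), 19 of 5 (5.11%) and 15 of 6 or more, of which 2 had 12 peaks. With midpoints linked only under 3000 bp, 100 zones had 3 or more peaks, in place of 179, and the list of replicate 1 alone gave 1515 spaced peaks and 738 zones.

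The median zone span, from the start of the first peak to the end of the last, was 3951 bp (quartiles 2474 and 5400 bp), with a shortest of 1107 bp and a longest of 21281 bp. It was 2698 bp for zones of 2 peaks, 4444 bp for 3, 7024 bp for 4 and 7820 bp for 5. Within zones the median step between successive midpoints was 2026 bp. In 200 zones (53.8%) every peak was a spaced peak, and these held 444 of the 705 (63.0%). All 200 were small: 162 had 2 peaks, 32 had 3 and 6 had 4. The larger zones were mixed. Of the 172 with other peaks, 67 held closely paired peaks, 66 wide peaks and 39 both, and every zone of 5 or more peaks was among them. Spaced peaks were 65.6% of all zone peaks, but the rule itself bears on how the kinds fall by zone size. In a zone of 2 peaks the step is at least 1000 bp, so a narrow partner is spaced by definition. A closely paired peak brings a partner of its own under 1 kb away, so it can occur only in zones of 3 or more. Larger zones also offer more places for a peak of another kind. Whether the make-up differs from what the rule gives was not tested. On the same stretches 195 runs of at least 2 peaks held no spaced peak, of which 45 had 3 or more peaks and the largest had 7.

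**Figure D2:**
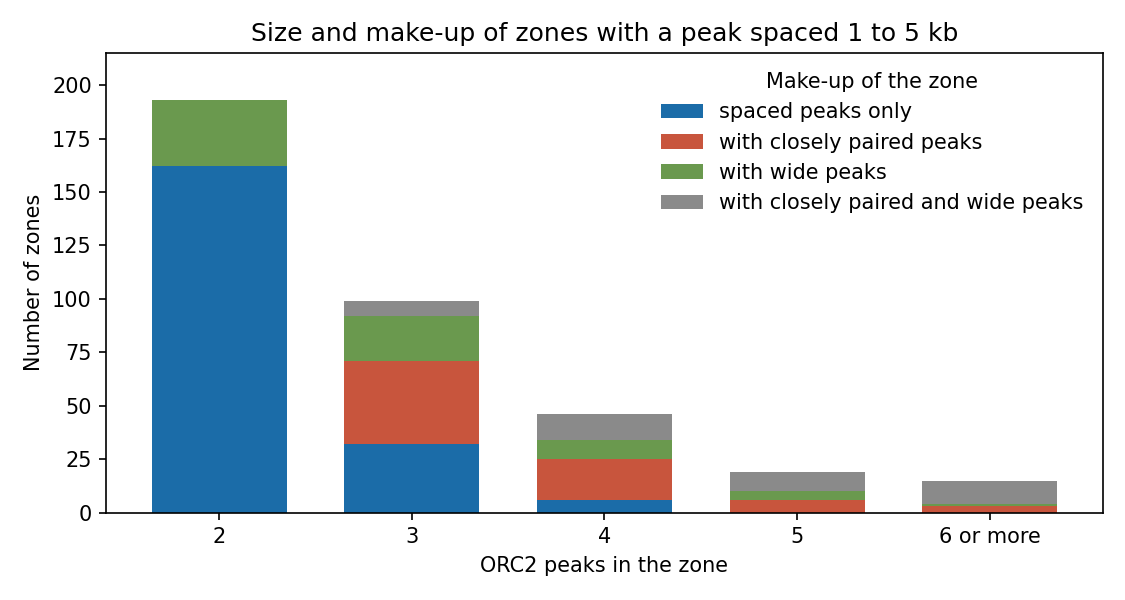
Number of zones (y axis) by the number of ORC2 peaks in the zone (x axis), with bars divided by the other kinds of peaks in it. Zones of spaced peaks alone make up 162 of the 193 zones of 2 peaks and none of the zones with 5 or more. By the rule a zone of 2 peaks cannot hold a closely paired peak.

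The zone with the most peaks in the shortest span lay on 3R at 13525692 to 13544138. It had 12 peaks in 18447 bp, of which 4 were spaced, 3 closely paired and 5 wide. It consisted of a dense first part of 7 peaks with their midpoints over 5998.5 bp, an empty step of 4869 bp, and a looser second part of 5 peaks with steps of 1138 to 2321.5 bp. The 4 spaced peaks stood at the end of the first part and in the second. The one at 13531842 to 13532052 scored 4.60 in replicate 1 and 3.85 in replicate 2, and the one at 13538613 to 13538857 scored 2.89 and 3.34. The peak at 13542786 to 13543087 scored 3.37 and 3.21, and the last, at 13544011 to 13544138, scored 2.46 and 2.58. The replicates placed the first of the 4 highest and the last lowest. The median over its 12 peaks was 3.22 for replicate 1 and 3.31 for replicate 2, or 3.27 ± 0.0648 (mean and SD, n = 2).

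The second zone of 12 peaks was also on 3R, at 12047375 to 12068655, and was the longest, at 21281 bp. Its median score was 2.50 for replicate 1 and 2.63 for replicate 2, or 2.57 ± 0.0902 (mean and SD, n = 2), below that of the first zone in each library. The 4 spaced peaks followed each other in the middle. They scored 2.49 in replicate 1 and 1.93 in replicate 2 at 12053135 to 12053264, 2.52 and 2.52 at 12056877 to 12057250, 1.90 and 2.23 at 12058599 to 12058771, and 2.24 and 2.34 at 12060069 to 12060427. The series scores of all 4 lay between 2.07 and 2.52, all under the median of spaced peaks given below, 2.99. The highest peak of the zone was a wide one at 12062019 to 12062521, which scored 4.84 and 3.87.

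**Figure D3:**
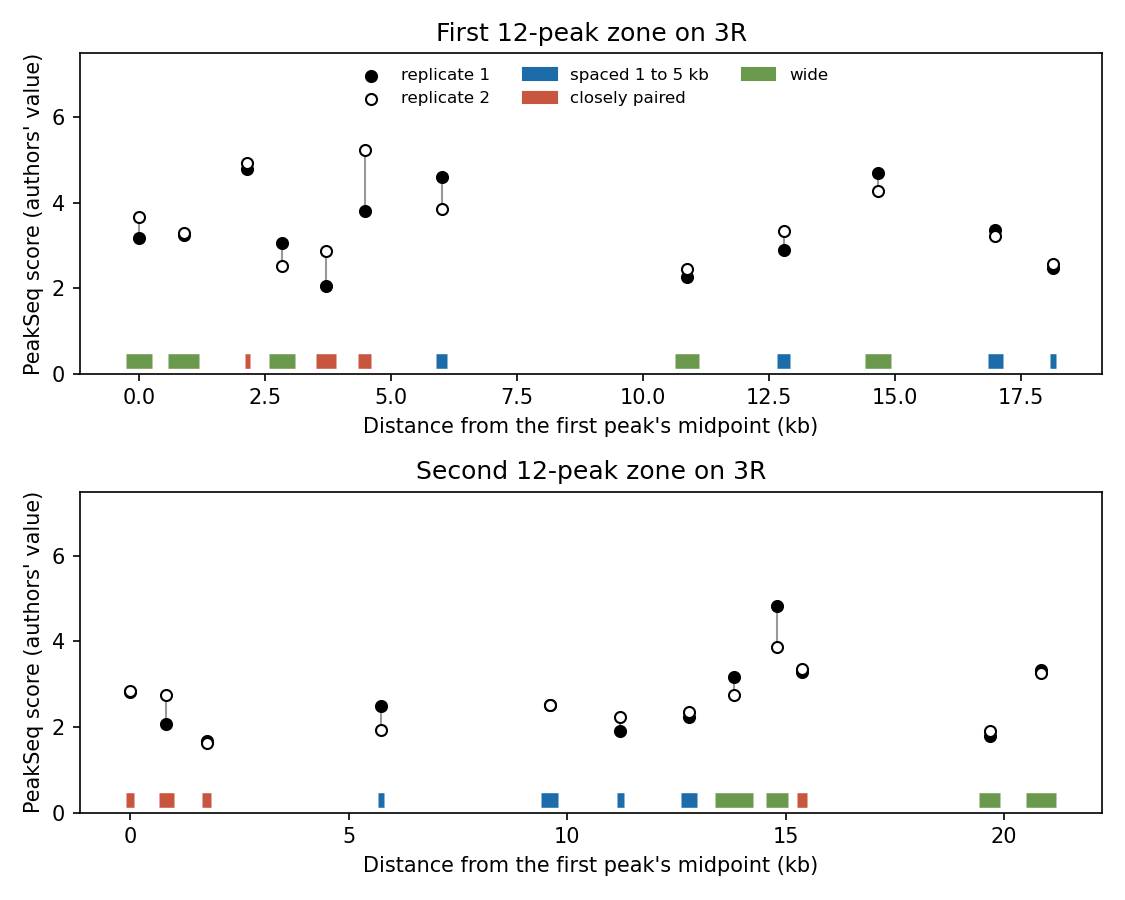
ORC2 peaks of both 12-peak zones on 3R, with the distance from the first midpoint on the x axis (kb) and the PeakSeq score on the y axis. Filled and open points are replicate 1 and replicate 2, and the blocks at the bottom show each peak's width and kind; the first zone has an empty step of 4869 bp, and the second runs from a group of 3 closely paired peaks through 4 spaced ones.

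The other zones named here, next in size, held 6 to 9 peaks. The zone of 9 on 2L at 12003035 to 12014208 contained a single spaced peak, at 12010206 to 12010558, which scored 3.08 for replicate 1 and 2.89 for replicate 2, among 5 wide and 3 closely paired ones. The zones of 8 differed in make-up. The one on 3R at 5905054 to 5915403 had 3 spaced peaks with series scores of 3.40, 2.07 and 3.30, whereas the one on 2L at 479121 to 490925 had 1, which scored 2.47 and 3.15 and stood 4444 bp and 4334.5 bp from groups of closely paired peaks on either side. The 4 zones of 7 peaks included the one on 3L at 530975 to 543194, where scores were low throughout, with a median of 2.13 in replicate 1 and 2.22 in replicate 2. That on 3R at 17475667 to 17486779 had a median of 3.22 and 3.60, and that on 2L at 8411447 to 8424358 of 3.15 and 2.82. The zone on 3R at 17759960 to 17775313 was richer in spaced peaks, with 4 of 7. So was the shortest of the 6 zones of 6 peaks, on 2L at 7418467 to 7426692, with 4 of 6. The peaks of this last zone scored from 2.61 to 4.58 in replicate 1 and from 2.72 to 4.45 in replicate 2.

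Zones were spread along all 3 arms. There were 98 zones on 2L, 140 on 3L and 134 on 3R, or 4.67, 6.22 and 5.18 per Mb. Spaced peaks numbered 188 on 2L, 260 on 3L and 257 on 3R. Their share of the series peaks was 25.6% on 2L (95% exact interval 22.5 to 28.9), 28.2% on 3L (25.3 to 31.3) and 26.3% on 3R (23.5 to 29.2), so that the intervals overlapped. These intervals take peaks as independent, which grouped peaks are not. The median distance to the nearest peak was 2384, 2481 and 2461 bp, and the median score 3.004, 2.95 and 3.03. Zones of 3 or more peaks made up 44.9%, 47.1% and 51.5% of the zones on these arms.

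Over the 67 whole 1 Mb windows of the stretches the count of spaced peaks ran from 1 to 24, with a median of 11. The rule brings spaced peaks in groups, which itself widens this range. The windows with the most were 17000001 to 18000000 on 3R with 24 of its 65 peaks, 16000001 to 17000000 on 2L with 21 of 40, and 1 to 1000000 on 3L with 19 of 61. Each of the 3 windows held 9 zones. The window with the fewest was 8000001 to 9000000 on 3L, which had 1 spaced peak among 41, while 27 of its peaks were isolated. Across windows the number of spaced peaks went with that of wide peaks (Spearman's rho 0.485) and less with isolated (0.333) and closely paired peaks (0.132); the windows share the same lists, and these are descriptions. Successive zones lay a median of 110375 bp apart. The longest stretch between zones ran on 2L from 8691770 to 9698566 (1006797 bp), where the series list still had 16 peaks, 11 of them isolated.

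The scores of the spaced peaks were moderate. Their median in the series list was 2.99 (quartiles 2.48 and 3.77, range 1.41 to 16.3). It was 2.997 for replicate 1 and 2.96 for replicate 2, or 2.98 ± 0.0264 (mean and SD, n = 2). On single arms the libraries lay further apart, in opposite directions. The medians were 3.13 in replicate 1 and 2.87 in replicate 2 on 3L, but 2.89 and 3.06 on 3R, and 3.005 and 2.98 on 2L. The SD over all arms does not show these offsets. The medians of the other kinds were higher in each library. Closely paired peaks had 3.15 in replicate 1 and 3.02 in replicate 2 (mean 3.09 ± 0.0887), isolated peaks 3.14 and 3.10 (3.12 ± 0.0308) and wide peaks 3.42 and 3.09 (3.26 ± 0.236; SD, n = 2 for each). By series score the spaced peaks were also the lowest on 2L, 3L and 3R taken alone, but not in every replicate of every arm: on 3L in replicate 1 spaced peaks had 3.13 and closely paired peaks 3.10, and on 2L in replicate 2 the values were 2.98 and 2.96. The differences between spaced and isolated peaks were -0.146 in replicate 1 and -0.140 in replicate 2, and those between spaced and closely paired peaks -0.151 and -0.0631. No test was made of these differences.

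By distance to the nearest peak, the median score of the spaced peaks was 3.04 at 1 to 2 kb, 2.91 at 2 to 3 kb, 2.99 at 3 to 4 kb and 2.94 at 4 to 5 kb. In zones of 2 peaks the 355 spaced peaks had a median of 3.03, and in zones of 3 or more the 350 had 2.95. In the larger zones, inner spaced peaks had a median of 3.03 in replicate 1 and 3.14 in replicate 2 (n = 116 peaks), and outer ones of 2.94 and 2.84 (n = 234 peaks). Inner peaks were thus the higher in both libraries. They were also wider, with a median of 209.5 bp against 167.5 bp.

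Spaced peaks had a median width of 171 bp in the series list (quartiles 118 and 259 bp, range 16 to 396 bp), against 182 bp for closely paired and 162 bp for isolated peaks. The series intervals are joint extents. The replicate peaks within them had medians of 149 bp for replicate 1 and 110 bp for replicate 2, or 129.5 ± 27.6 bp (mean and SD, n = 2), nearly as for isolated peaks, with 145 and 110 bp. The shortest at a spaced peak measured 2 bp in replicate 1 and 1 bp in replicate 2. Of the 705, 104 (14.8%) were under 100 bp wide and 111 (15.7%) were 300 bp or more. Spearman's rho between width and score across the 705 peaks was -0.0181, and the median score was 2.93 under 100 bp, 3.06 from 100 to 200 bp, 2.99 from 200 to 300 bp and 2.97 above. The 5 widest, of 392 to 396 bp, scored from 1.93 (3R, 11820091 to 11820485) to 4.30 (3L, 2265603 to 2265998), the latter with 4.72 for replicate 1 and 3.88 for replicate 2.

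The midpoints of the replicate 1 and replicate 2 peaks differed by a median of 18.5 bp (quartiles 8.5 and 39 bp), and by at most 167.5 bp. The replicate peaks overlap within an interval under 400 bp, so the rule limits this difference to less than the spacing. In 578 of the 705 (82.0%, 95% exact interval 78.9 to 84.8) the difference was 50 bp or less. The overlap of both replicate peaks covered a median of 59.5% of the joint interval, against 65.8% for closely paired and 65.2% for isolated peaks. Among spaced peaks its lower quartile was 33.5% and its lowest value 0.503%.

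The scores of the libraries ranked the spaced peaks alike, with a Spearman's rho of 0.746 across the 705 peaks, beside 0.754 for isolated and 0.750 for closely paired ones. Replicate 2 gave the higher score at 337 of the 705 (47.8%, 95% exact interval 44.1 to 51.6), where the share over the whole series list was 42.6%. It was 46.3% among isolated, 43.5% among closely paired and 26.6% among wide peaks of the stretches. The replicate scores were at least 1.5-fold apart at 52 spaced peaks (7.38%, 5.56 to 9.56), against 7.97% of the series list. They were at least 2-fold apart at 2 (0.284%, 0.0344 to 1.02), against 0.759%. These shares of apart scores were near or under those of the whole list.

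**Figure D4:**
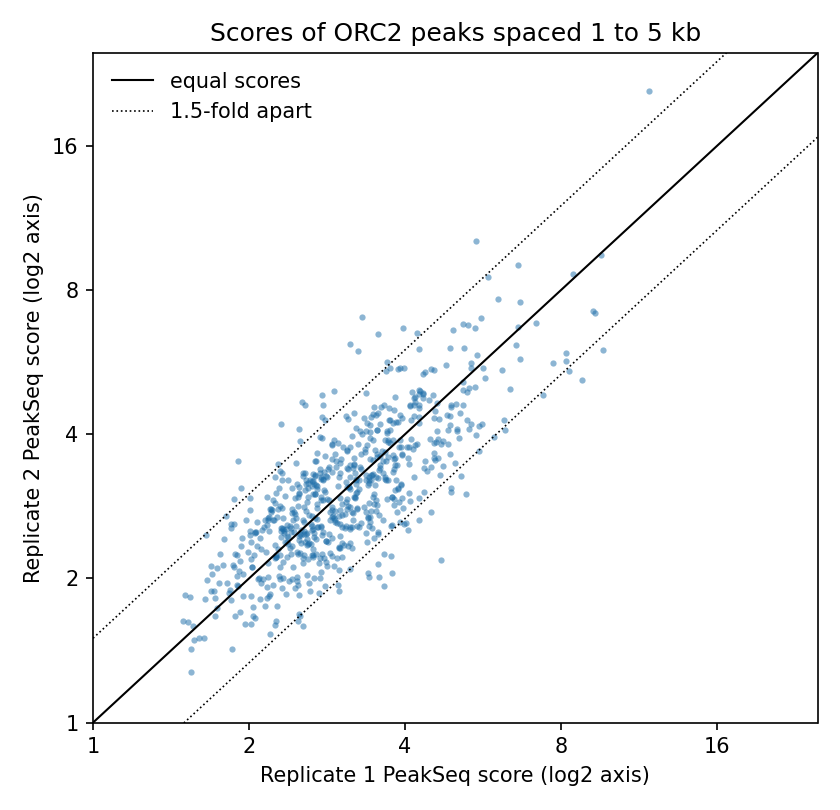
PeakSeq score of the 705 spaced peaks in replicate 1 (x axis) and replicate 2 (y axis), both on log2 axes. The solid line marks equal scores and the dotted lines scores 1.5-fold apart, outside which lie 52 peaks; the point at the upper right is the 3L peak with 11.8 and 20.8.

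The peaks at which the libraries disagreed most were of both directions. On 3L at 15525594 to 15525833 replicate 1 scored 4.70 and replicate 2 scored 2.18, a 2.15-fold difference, and the replicate 1 peak was 240 bp wide where that of replicate 2 was 47 bp. On 3R at 21564036 to 21564294 the scores were 3.31 and 7.02, 2.12-fold apart, with widths of 259 and 58 bp. The next on 2L at 10306841 to 10306950 had 3.13 and 6.16, and here the replicate 1 peak was the narrower, with 16 against 110 bp. The remaining ones were 3L at 13445277 to 13445556, where replicate 1 had 3.64 and replicate 2 had 1.92, and 2L at 6851967 to 6852087, at 5.48 and 10.1. In the first 4 of these 5 the narrower peak measured 16 to 58 bp, and at the last the widths were 90 and 121 bp. Unequal widths were not confined to such peaks. On 2L at 7573547 to 7573798 the score was 3.22 in each library, with widths of 252 bp in replicate 1 and 5 bp in replicate 2. How often widths differed over all spaced peaks was not counted, so no link with the scores is drawn.

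The 10 spaced peaks with the highest scores ran from 7.11 to 16.3. Of these, 7 lay in zones of 2 peaks, as did 355 of all 705 spaced peaks. The nearest neighbour of all 10 was another spaced peak, as it was for 518 of the 705 (73.5%), and 2 of the 10 were each other's neighbour. No test was made of these counts. The first, on 3L at 5790517 to 5790583, scored 11.8 for replicate 1 and 20.8 for replicate 2 (16.3 ± 6.38, mean and SD, n = 2), and its neighbour 3277 bp away scored 3.25 and 5.95. The second, on 2L at 8690535 to 8690624, scored 9.57 and 9.47 (9.52 ± 0.0721), and its neighbour at 1133 bp scored 3.08 and 3.71. Next came 3L at 4403349 to 4403480, which scored 8.45 and 8.64 (8.55 ± 0.132) beside a neighbour with 3.87 and 3.09. These peaks were chosen by the mean of the same scores, so that a lower neighbour follows largely from the choice.

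Among the rest, the peak on 3R at 16460373 to 16460547 scored 9.31 in replicate 1 and 7.17 in replicate 2, and its neighbour at 1110 bp scored 1.85 and 2.60. The 3R peak at 26427567 to 26427731 scored 5.78 and 8.51, beside a neighbour with 2.23 and 2.64. On 3L, 3789271 to 3789413 scored 9.63 and 6.001, with a neighbour at 5.12 and 3.27, and 6257701 to 6257821 scored 6.61 and 9.02, with a neighbour at 4.17 and 3.79. In 2 cases the neighbour was high as well. On 2L, 6851967 to 6852087 and 6854042 to 6854179, 2083.5 bp apart, were both among the 10, with 5.48 and 10.1 at the first and 6.67 and 7.54 at the second, so that the libraries disagreed on which was the higher. On 3L, 21472737 to 21473073 scored 9.21 and 7.23, and its neighbour at 3176 bp scored 7.38 and 4.84.

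Across 703 pairs of neighbours in zones, Spearman's rho was 0.179 with replicate 1 scores and 0.162 with replicate 2 scores. When one peak's score came from replicate 1 and the other's from replicate 2, so that the pair shared no library, rho was 0.123 and 0.165. Successive peaks further apart gave lower values: 0.0939 in replicate 1 and 0.126 in replicate 2 at 5 to 10 kb (356 pairs), 0.0648 and 0.0316 at 10 to 20 kb (410 pairs), and 0.0674 and 0.0678 at 20 kb or more (892 pairs). Within zones the values showed no steady fall with distance. In replicate 1 rho was 0.226 at 1 to 2 kb, 0.118 at 2 to 3 kb, 0.2498 at 3 to 4 kb and 0.0818 at 4 to 5 kb. In replicate 2 it was 0.232, 0.0409, 0.215 and 0.0515 at the same distances. The value at 4 to 5 kb in each library, and at 2 to 3 kb in replicate 2, lay below that at 5 to 10 kb. Pairs share zones and lists, so these values are descriptions. By the spread of log2 scores, peaks of 1 zone varied with an SD of 0.42 and zones with an SD of 0.20, and 18.9% of the variance lay between zones (18.7% in replicate 1 and 18.1% in replicate 2).

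Which peak of a zone scored highest was the same in both libraries in 268 of the 372 zones (72.0%, 95% exact interval 67.2 to 76.5). The share was 77.2% (70.6 to 82.9) in zones of 2, 69.7% (59.6 to 78.5) in zones of 3 and 62.5% (51.0 to 73.1) in zones of 4 or more. Larger zones offer more peaks to choose from. For 573 pairs of successive isolated peaks, which are not in a zone, the libraries put the same peak first in 76.1%, close to the value in zones of 2. The highest peak scored a median of 1.30 times the other in zones of 2, and 1.68 times the lowest in zones of 3 or more. In the mixed zones the highest peak was a spaced peak in 63 of 172 (36.6%), where spaced peaks made up 41.4% of the peaks. It was a closely paired peak in 63 (36.6%), where these made up 36.5%, and a wide one in 46 (26.7%), where wide peaks made up 22.2%. The first share of each kind counts every zone once, whereas the second pools peaks and gives large zones more weight. The 2 are therefore not like measures.

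Peaks called in 1 library only did not enter the series list, so the rule did not use their positions. They come from the same libraries and calls as the zones, so their placement is a description and not independent support. Between the series peaks of the zones replicate 1 had 169 such peaks, or 119 per Mb, against 29.8 per Mb outside zones. Replicate 2 had 51, or 35.9 per Mb, against 9.09. The density inside was 3.999 and 3.95 times that outside. Much of the ground outside zones is far from any series peak. At bases 500 to 2500 bp from a series midpoint, a comparison added after the data were seen, the densities in replicate 1 were 132 per Mb inside zones (95% exact Poisson interval 110 to 158) and 78.9 outside (72.3 to 85.9). In replicate 2 they were 38.1 (26.7 to 52.8) and 25.1 (21.5 to 29.2), with overlapping intervals. The ratios were 1.68 and 1.52. Bases inside zones have series peaks on both sides, and the part of this in the difference was not tested.

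Outward from the zones the same peaks were densest at 500 to 1000 bp, with 140 per Mb in replicate 1 and 51.1 in replicate 2. Within 500 bp they had 80.6 and 40.3 per Mb, but there the series peak itself takes up part of the ground counted. Beyond 1 kb the bins of 500 bp ranged from 34.9 to 83.3 per Mb in replicate 1 and from 8.06 to 21.5 in replicate 2, where they showed no steady fall with distance. At 500 to 5000 bp beyond the outermost midpoints replicate 1 had 68.7 single-library peaks per Mb (60.1 to 78.2), and beside isolated peaks, which by the rule also had no series peak in that range, it had 53.5 (48.7 to 58.5). Replicate 2 had 21.2 (16.6 to 26.7) and 15.5 (12.98 to 18.3). The zone value was the higher in both libraries, 1.29-fold and 1.37-fold. The intervals were apart in replicate 1 and overlapped in replicate 2. They cover counting error only, and a peak between 2 groups can count for both. Both kinds of surroundings exceeded the means of the stretches, 31.3 per Mb in replicate 1 and 9.56 in replicate 2.

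**Figure D5:**
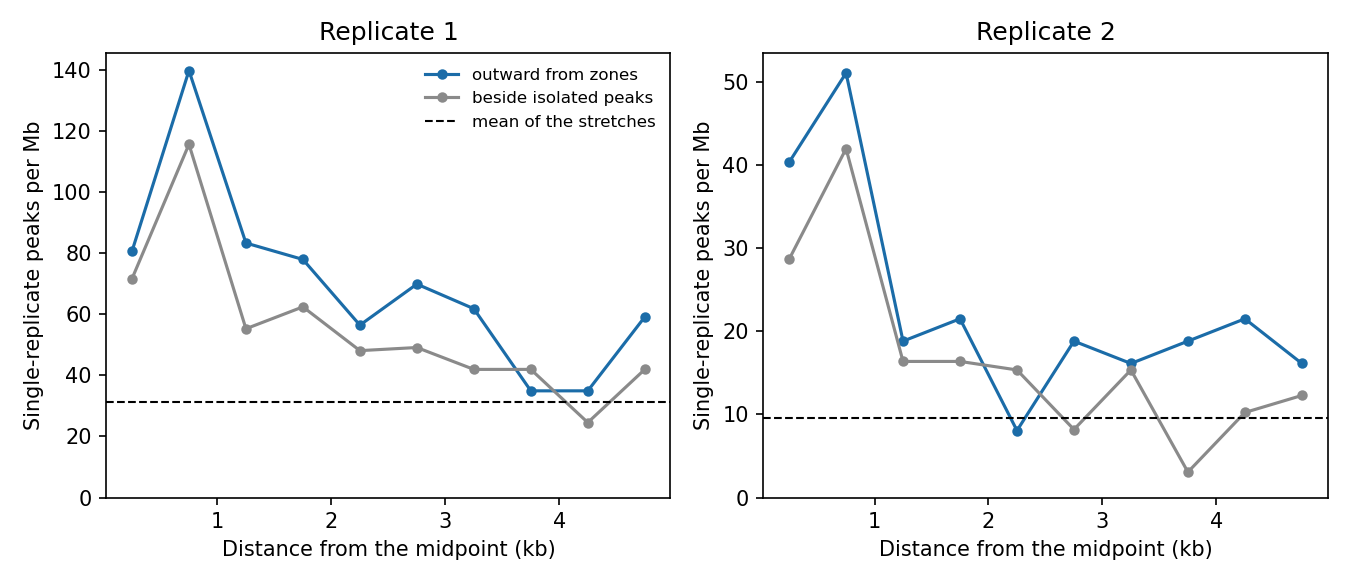
Peaks called in 1 library only, per Mb (y axis), by distance from the outermost midpoint of a zone or from an isolated peak (x axis, kb, bins of 0.5 kb); the dashed line is the mean of the stretches. In both libraries the density is highest at 500 to 1000 bp, at 140 per Mb outward of zones and 116 beside isolated peaks in replicate 1, and at 51.1 and 42.0 in replicate 2. In the bin below 500 bp the series peak itself takes up part of the ground counted.

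These single-library peaks changed the spacing in the lists of the separate libraries. In replicate 1, 272 of the 705 spaced peaks (38.6%, 95% exact interval 35.0 to 42.3) had a single-library peak nearer than their nearest series peak, and 147 (20.9%) had one within 1 kb. In replicate 2 the numbers were 96 (13.6%, 11.2 to 16.4) and 60 (8.51%). Of the 977 isolated peaks, 654 (66.9%) in replicate 1 and 322 (33.0%) in replicate 2 had a single-library peak nearer than their nearest series peak, which by the rule lay at 5 kb or more. The shares of isolated peaks with one within 1 kb were 16.9% and 6.76%. Within the zones, 121 of 372 (32.5%) held at least 1 single-library peak of replicate 1 and 45 (12.1%) at least 1 of replicate 2, while 232 (62.4%, 57.2 to 67.3) held none of either. Inside zones their scores had medians of 2.41 in replicate 1 and 2.42 in replicate 2, and outside zones of 2.50 and 2.73, against 2.997 and 2.96 at the spaced peaks. Spaced peaks had to be called in both libraries and these in 1 only. That choice can itself set the scores apart, and its part was not tested. The median widths of the single-library peaks were 65 and 27 bp inside zones and 58 and 29 bp outside.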

How the data were processed

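Peaks were called by the authors with PeakSeq on FlyBase release 5, per the file headers and source fields. The deposited score of each peak is a value of the authors whose quantity is not named. The deposited start and end coordinates were read as other values, 1-based. Not given in the sources used here are the aligner, thresholds, read depth and use of the input.

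The peaks, zones and alternatives were chosen with earlier results of these data known. Distances ran between midpoints over all peaks of the series list, and replicate peaks were assigned by an overlap of at least 1 bp. Regions named are the 10 zones with the most peaks, the 10 highest, 5 widest and 5 least repeatable spaced peaks, and the 3 fullest 1 Mb windows. Among zones with the same number of peaks the shorter came first. Intervals are 95% exact binomial or Poisson intervals and cover counting error only. They take peaks as independent, although spaced peaks come in groups, so they can be too narrow. Python 3.11.15, numpy 2.4.6, pandas 2.3.3, scipy 1.17.1 and matplotlib 3.10.9 were used, and the code was tested on simulated lists. No genome or annotation of release 5 was used here, so gene, GC and motif features of the plan were not run and no sequence is shown.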

Additional observations from a re-analysis of the deposited data

How the results depend on the processing

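Counts depend on the list. Applied to the lists of the single libraries (leaving out each replicate in turn), the rule gave 987 to 1515 spaced peaks, 492 to 738 zones, 263 to 435 zones of 3 or more peaks, median spans of 4041 to 4281 bp, median scores of 2.71 to 2.94 and median widths of 99 to 100 bp. With only peaks at or above the median score these values were 222, 124, 35, 3115 bp, 4.01 and 181 bp. Width limits of 300 and 500 bp left the number of spaced peaks at 594 and 753 and gave median widths of 149 and 183 bp; edge to edge distances gave 644 and 167.5 bp. Linking under 3000 bp gave 100 zones of 3 or more peaks and a median span of 2528 bp, linking under 10000 bp a span of 5672 bp, and linking over spaced peaks alone 51 such zones and 3320 bp. Requiring an overlap of 50% of both peaks lowered the share of replicate peaks in zones that met a peak of the other library from 86.5% to 54.2% in replicate 1 and from 95.5% to 59.1% in replicate 2; zones hold shared peaks by construction. The neighbour correlation of 0.179 went to 0.162, 0.123 and 0.165 with the other library or across libraries. The score difference to isolated peaks was -0.146 in replicate 1, -0.0898 on 2L and -0.153 on 3L, and kept its sign in all 5 alternatives. The ratio of single-library peaks outward of zones in replicate 2 was 1.44 from 1000 bp and 1.10 up to 2500 bp, and the ratios inside zones were 1.68 and 1.52 at matched distances. The cause of these changes was not tested where the construction does not give it. The alternatives on gene and sequence features were not run. No paired analysis was possible because peak lists of 1 group only were analysed here; kinds of peaks were set side by side within each library, with no test. How far depth sets the length of the replicate 2 list is unknown.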
